A study of Homo sapiens with 15 samples.

Results

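The genes described are 9 members of the interleukin-1 (IL-1) family of cytokines and receptors, IL1A, IL1B, IL18, IL33, IL1RN, IL1R1, IL1RAP, IL1RL1 and IL18R1, out of 18417 genes that could be named on the array. They were chosen by name, each had 1 transcript cluster (the probe set that stands for a gene), and 7 of the 9 were bright enough to be tested among 16872 genes. The remaining 2, IL18R1 and IL33, did not reach the 20th percentile of an array's signals on at least 3 of the 15 arrays and are described without a test. The data came from MH7A, an established human synovial cell line, hybridized to Affymetrix Human Gene 1.0 ST arrays. The 5 conditions were compared in 3 separate experiments, with 1 array per condition and experiment. The conditions were resting cells, cells given IL-1β at 15 pg/ml for 13 h, and cells given the same IL-1β together with glucosamine (GlcN), alloxan or both. GlcN was present at 5 mM from 2.5 h before IL-1β, whereas alloxan, which inhibits the O-GlcNAc transferase, began at 5 mM and was lowered to 2 mM after 30 min. There was no array of GlcN or alloxan without IL-1β, and all arrays came from the same line, so that the 3 experiments are repeats of culture and not of donor.

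Cytokines of the IL-1 family are made mostly without a secretion signal, and IL-1β and IL-18 are cut to their active forms by caspase-1 in inflammasomes. Each binds a primary receptor, which then recruits an accessory chain and the adaptor MyD88 to switch on NF-κB and MAP kinases, while the receptor antagonist occupies the IL-1 receptor without signalling. In the synovium of inflamed joints, fibroblast-like cells answer IL-1 with interleukin-6, chemokines and matrix-degrading enzymes.

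Among the 9 members, 1 receptor gene stood out with GlcN. IL1RL1, which encodes the IL-33 receptor ST2, was 1.69-fold higher with GlcN and IL-1β than with IL-1β alone when arrays were compared within their experiment, and the value with GlcN and alloxan lay between those with IL-1β alone and with GlcN in all 3 experiments. The gene of the added cytokine, IL1B, its receptor IL1R1, the accessory chain IL1RAP and the antagonist gene IL1RN differed by at most 0.36 on the log2 scale among the 5 arrays of any experiment. IL1A was lowest and IL18 highest on the resting array in each of the 3 experiments. All tests below are from limma, fitted over all genes with the experiment as a block, and adjusted by Benjamini-Hochberg over the 16872 genes. No member passed when the experiment was left out of the fit, where the standard error was 0.596 for every gene between a pair of conditions. The IL1RL1 difference with GlcN passed in the blocked fit, but not with only the arrays of both groups in it, nor without experiment 3. Outside the members, the receptor genes IL1R2 and IL1RAPL1 passed with GlcN too, IL1R2 higher and IL1RAPL1 lower. Both of these calls were lost in some fits that left out an experiment.

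The 3 experiments had different signal levels, with array medians of 6.181 to 6.211 in experiment 1, 7.137 to 7.188 in experiment 2 and 7.491 to 7.544 in experiment 3, so that levels are compared only within an experiment. Many values were the same on several arrays of an experiment to 5 decimals. At least 3 of the 5 arrays held the same value for 38.6%, 27.8% and 27.6% of all genes tested in experiments 1, 2 and 3, and in all 3 experiments for 9.76%. Of the members, this held in all 3 experiments for IL1RN, IL1R1, IL1RAP, IL18R1 and IL33. A difference of 0.00 within an experiment is therefore common here and does not give the size of the measurement error. Equal values lower the residual spread of the blocked fit, so its intervals and adjusted p-values may be too small. By how much was not tested. Of 11 synovial fibroblast markers 6 lay above the 50th percentile in their median over the arrays, from COL3A1 at 68.3 to the intermediate filament VIM at 98.7, whereas CDH11, PDPN, PDGFRA and FAP lay at 46.4, 30.7, 26.3 and 25.7 and PRG4, a lining-layer fibroblast gene, at 14.7. Of 6 macrophage markers 1 lay above the 50th percentile, the lysosomal protein CD68 at 84.3, and the others ran from PTPRC, which marks all leukocytes, at 10.1 to CD14 at 44.4.

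**Figure D1:**
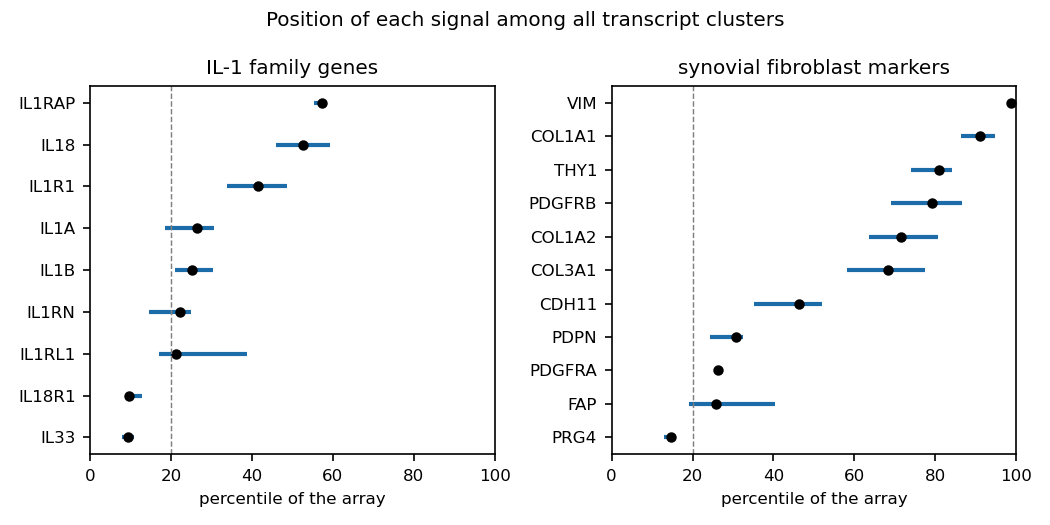
Percentile of each gene's signal among all transcript clusters of the same array, with the point at the median and the bar from the lowest to the highest of the 15 arrays, for the 9 IL-1 family genes and for 11 synovial fibroblast markers, and with the 20th percentile dashed. IL1RAP and IL18 lie near the middle of the arrays, 5 members lie between the 14th and the 49th percentile on every array, and IL18R1 and IL33 stay below the 20th.

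Among the agonists, IL1A encodes IL-1α, which is active in its uncut form and can act as an alarm signal of injured cells. In resting cells its log2 signal was 4.07, 5.46 and 5.70 in experiments 1, 2 and 3, and with IL-1β it was 4.57, 5.65 and 5.89. With GlcN it was 4.96, 5.63 and 6.24, with GlcN and alloxan 4.84, 5.63 and 6.18, and with alloxan 4.69, 5.66 and 6.33. The resting array was the lowest of the 5 in each experiment, and the 4 stimulated arrays of experiment 2 lay within 0.04 of each other. The value with IL-1β was above resting in 3 of 3 experiments, with a log2 difference of 0.29 ± 0.19 (SD, n = 3), or 1.22-fold, and a 95% interval of 0.04 to 0.55, which did not pass in limma (adjusted p = 0.79). Neither GlcN, with a further log2 difference of 0.24 ± 0.22 (SD, n = 3, limma, adjusted p = 0.23), nor alloxan, with 0.20 ± 0.22 (SD, n = 3, limma, adjusted p = 0.33), passed against IL-1β alone.

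IL1B encodes the cytokine that was added to the cultures as protein. Its own log2 signal in resting cells was 4.61, 5.29 and 5.97, and with IL-1β it was 4.61, 5.29 and 6.33. It was 4.61, 5.29 and 6.19 with GlcN, 4.61, 5.20 and 6.19 with GlcN and alloxan, and 4.85, 5.37 and 6.32 with alloxan. In experiments 1 and 2 the resting, IL-1β and GlcN arrays held the same value, and in experiment 3 every stimulated array was above the resting one. The log2 difference of IL-1β from resting was 0.12 ± 0.21 (SD, n = 3, limma, adjusted p = 0.869). Cells with GlcN and alloxan were below cells with alloxan in 3 of 3 experiments, by -0.24, -0.17 and -0.13, which gave a log2 difference of -0.18 ± 0.05 (SD, n = 3) that did not pass after adjustment (limma, adjusted p = 0.194).

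IL18 encodes a cytokine that is stored as a precursor and is best known for its effect on interferon-γ production by lymphocytes. Its log2 signal was 6.61, 7.84 and 7.90 in resting cells and 6.40, 7.68 and 7.38 with IL-1β. It was 6.40, 7.20 and 7.30 with GlcN, 6.37, 7.65 and 7.67 with GlcN and alloxan, and 6.40, 7.80 and 7.63 with alloxan. The resting array was the highest of the 5 in each experiment, and in experiments 2 and 3 the GlcN array was the lowest. The log2 difference of IL-1β from resting was -0.30 ± 0.19 (SD, n = 3), lower in 3 of 3 experiments, with a 95% interval of -0.52 to -0.07 (limma, adjusted p = 0.719). With GlcN it was a further -0.19 ± 0.26 (SD, n = 3, limma, adjusted p = 0.293), and the differences between both agents and GlcN were -0.03, 0.45 and 0.37, a mean of 0.26 ± 0.25 (SD, n = 3, limma, adjusted p = 0.15). In bulk samples such as these, fewer cells that express a gene and less RNA per cell cannot be told apart. IL33, the alarm cytokine that binds ST2, lay at a median percentile of 9.39 on the arrays, with log2 signals of 2.80 to 3.08, 3.89 to 4.05 and 4.19 to 4.47 in the 3 experiments, and 4 of the 5 arrays of each experiment held the same value.

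**Figure D2:**
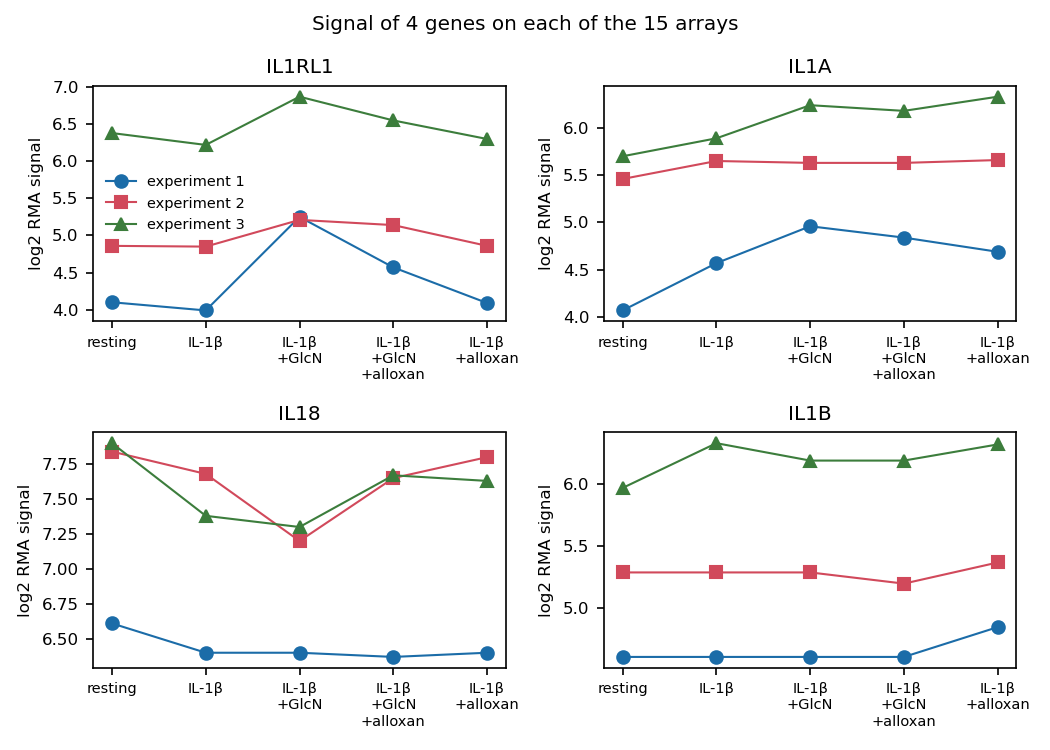
Deposited log2 RMA signal of IL1RL1, IL1A, IL18 and IL1B on each of the 15 arrays, by condition, with the symbols and lines joining the 5 arrays of an experiment and with a separate scale in each panel. IL1RL1 peaks with GlcN in every experiment, IL1A is lowest and IL18 highest on the resting array, and each gene spans a wider range across experiments than across conditions.

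Because IL1A and IL18 set the resting arrays apart in all 3 experiments, the mean of the 4 stimulated conditions was also compared with resting, a comparison added after these levels had been seen. IL1A was higher by 0.70, 0.18 and 0.46, a mean of 0.45 ± 0.26 (SD, n = 3) or 1.36-fold, with a 95% interval of 0.25 to 0.65 (limma, adjusted p = 0.00993). IL18 was lower by a log2 difference of -0.29 ± 0.10 (SD, n = 3) in 3 of 3 experiments, with an interval of -0.47 to -0.12 (limma, adjusted p = 0.0404). These were 2 of the 7 members tested, beside 10.2% of all genes. Neither value is independent of the pattern that prompted the comparison. The IL1A call was lost without experiment 1 (log2 difference 0.319, limma, adjusted p = 0.131) and without experiment 3 (0.439, limma, adjusted p = 0.161). The IL18 call was lost without experiment 1, 2 or 3 (log2 differences -0.332, -0.309 and -0.238, limma, adjusted p = 0.076, 0.143 and 0.365).

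IL1RN, which encodes the secreted antagonist of the IL-1 receptor, showed little movement in any condition. Its log2 signal lay between 3.69 and 3.88 in experiment 1, between 5.42 and 5.52 in experiment 2 and between 5.74 and 5.78 in experiment 3. The GlcN array and the array with GlcN and alloxan held the same value in each experiment. The log2 difference of GlcN from IL-1β was 0.051 ± 0.10 (SD, n = 3), with a 95% interval of -0.05 to 0.16 (limma, adjusted p = 0.585), an interval that ends below the one for IL1RL1.

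Of the receptor genes, IL1R1 encodes the receptor through which the added cytokine signals. Its log2 signal was 5.58 to 5.79 in experiment 1, 7.03 on all 5 arrays of experiment 2 and 6.54 to 6.84 in experiment 3, where the alloxan array was the lowest. The log2 difference of IL-1β from resting was -0.0432 ± 0.07 (SD, n = 3), with an interval of -0.17 to 0.08 (limma, adjusted p = 0.993), and that of alloxan from IL-1β was -0.0856 ± 0.09 (SD, n = 3, limma, adjusted p = 0.393). IL1RAP encodes the accessory chain that the receptors for IL-1 and IL-33 share, and was the member with the highest median percentile, 57.3. Its log2 signal ran from 6.65 to 6.78, 7.63 to 7.74 and 7.89 to 7.94 in experiments 1, 2 and 3, so that no array was more than 0.12 from another of its experiment. IL18R1, which encodes the ligand-binding chain of the IL-18 receptor, lay at a median percentile of 9.6, with log2 signals of 2.94 to 3.05, 4.14 to 4.33 and 4.41 to 4.44.

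IL1RL1 encodes ST2, in a membrane form that signals with IL1RAP and in a soluble form that captures IL-33, and its single transcript cluster does not separate these forms. The gene was dim in most arrays, with a median percentile of 21.3 and a range from 17.0 to 38.8. Its log2 signal was 4.10, 4.86 and 6.38 in resting cells and 3.99, 4.85 and 6.22 with IL-1β. With GlcN it was 5.25, 5.21 and 6.87, with GlcN and alloxan 4.57, 5.14 and 6.55, and with alloxan 4.09, 4.86 and 6.30. The GlcN array was the highest and the array with both agents the second highest in each experiment, whereas resting, IL-1β and alloxan arrays lay within 0.16 of each other.

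GlcN raised IL1RL1 over IL-1β alone by 1.26, 0.35 and 0.66 in experiments 1, 2 and 3, a log2 difference of 0.76 ± 0.46 (SD, n = 3) with a 95% interval of 0.46 to 1.06 (limma, adjusted p = 0.00453). The interval rests on a standard error of 0.14, which drew on all 5 conditions and was moderated over all genes. IL1RL1 was 1 of the 7 members tested, beside 11.9% of all genes that passed in either direction and 5.29% that were higher, a share too near the background to be a result about the family. Without the block the same difference had an adjusted p of 1.0 in limma, since the levels of the 3 experiments then count as error. It did not pass with only the arrays of both groups in the fit (limma, adjusted p = 0.235), nor without experiment 3 (log2 difference 0.806, limma, adjusted p = 0.0931). It passed without experiment 1 (0.506, limma, adjusted p = 0.0221) and without experiment 2 (0.957, limma, adjusted p = 0.0338).

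With both agents IL1RL1 differed from its value with GlcN by -0.68, -0.07 and -0.32, lower in 3 of 3 experiments, with a mean log2 difference of -0.36 ± 0.31 (SD, n = 3) that did not pass after adjustment (limma, adjusted p = 0.152). Cells with both agents were above cells with alloxan by 0.49, 0.28 and 0.26, or 0.34 ± 0.13 (SD, n = 3, limma, adjusted p = 0.231). The log2 difference between alloxan and IL-1β alone was 0.0594 ± 0.05 (SD, n = 3, limma, adjusted p = 0.864), with an interval of -0.24 to 0.36. The interaction, which asks whether GlcN acted differently with alloxan than without it, was -0.77, -0.07 and -0.40, a mean of -0.41 ± 0.35 (SD, n = 3) with an interval of -0.84 to 0.01 (limma, adjusted p = 0.463). A lower effect of GlcN in the presence of alloxan was thus measured in each experiment but was not separated from 0. In a comparison added after the levels had been seen, both agents together were above IL-1β alone by 0.40 ± 0.16 (SD, n = 3, limma, adjusted p = 0.0689).

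The order of IL1RL1, as the mean log2 difference from the resting array of the same experiment, was GlcN with 0.67 ± 0.43, GlcN and alloxan with 0.31 ± 0.15, resting, alloxan with -0.03 ± 0.04 and IL-1β with -0.09 ± 0.08 (SD, n = 3). The difference between the top pair did not pass after adjustment, and neither did that of IL-1β from resting, -0.0908 ± 0.08 (SD, n = 3, limma, adjusted p = 0.997), which was below 0 in 3 of 3 experiments, nor that of alloxan from IL-1β given above. The mean with alloxan lay within its SD of resting.

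**Figure D3:**
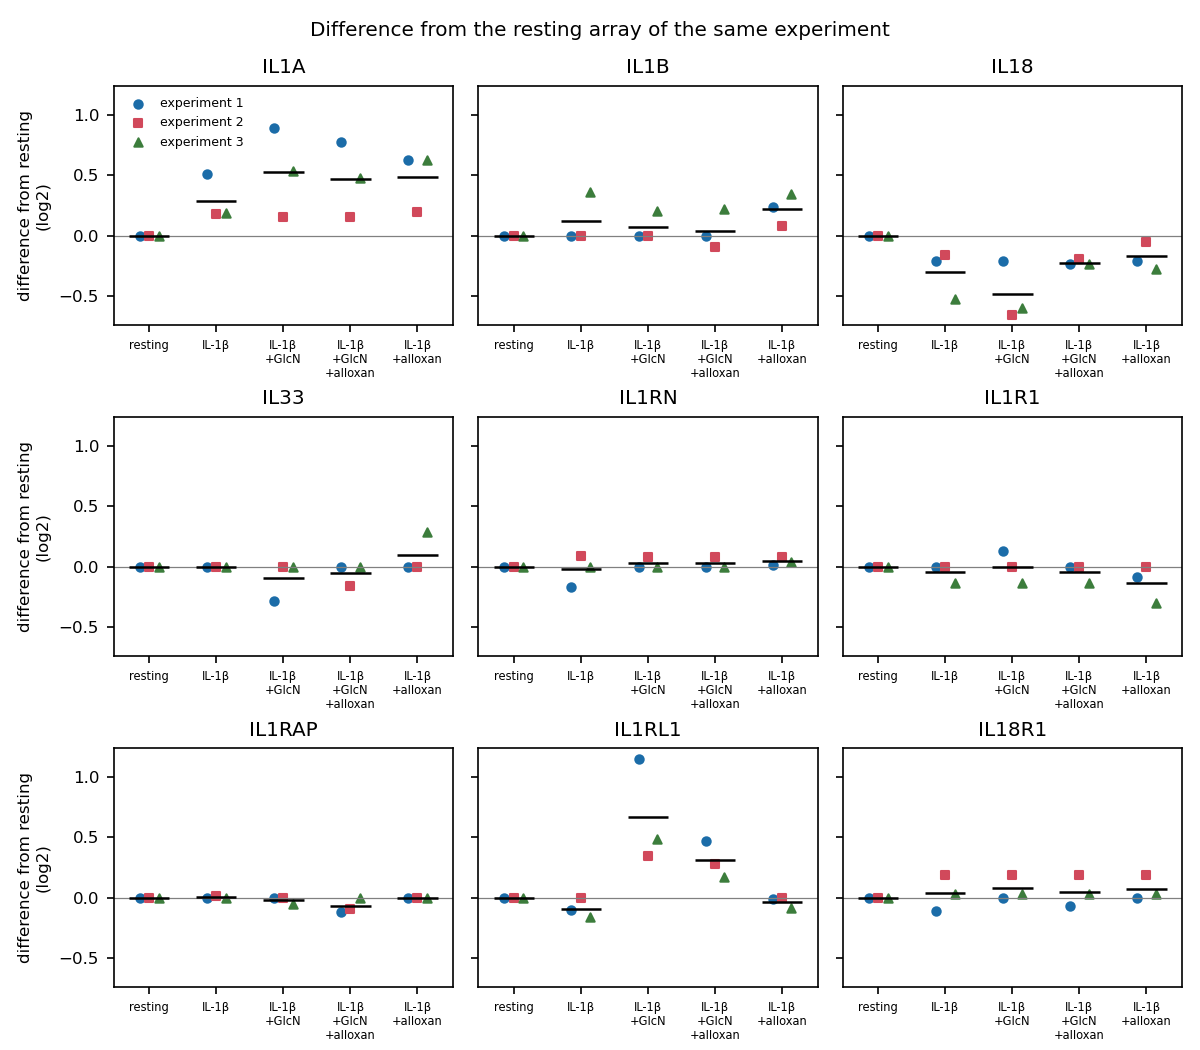
Log2 difference of each of the 9 genes from the resting array of the same experiment, by condition, with 1 symbol per experiment and a bar at the mean of the 3 experiments, on a common scale. The IL1RL1 points with GlcN lie at 1.15, 0.35 and 0.49, IL1A lies above and IL18 below the line in every stimulated condition, and the other genes stay within 0.36 of it.

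IL1RL1 is also a marker of mast cells, so the mast cell genes on the array were read beside it. The cultures were a single synovial cell line, so these genes are not a measure of mast cell number. KIT, the stem cell factor receptor, was lower with GlcN by a log2 difference of -0.80 ± 0.19 (SD, n = 3, limma, adjusted p = 0.000135), and CPA3, a mast cell carboxypeptidase, was higher by 0.66 ± 0.07 (SD, n = 3, limma, adjusted p = 0.000973). These are the 2 of 4 listed mast cell genes with a cluster of their own, 1 in each direction, and neither was near 0 in signal, with median percentiles of 76.4 and 53.2. The log2 of their summed signal was 8.78, 9.99 and 10.56 with IL-1β and 8.50, 9.62 and 9.90 with GlcN. Among fibroblast markers 5 of 11 were lower with GlcN, beside 6.62% of all genes, namely COL1A1, COL1A2, COL3A1, THY1 and FAP. The log2 of the summed signal of the 11, in which the brightest genes weigh most, differed by -0.24 to -0.15. The collagen calls and FAP did not pass without experiment 1 or without experiment 2, nor did COL1A2 without experiment 3 or THY1 without experiment 1, with limma adjusted p-values of 0.0521 to 0.149. The part of these shifts in the IL1RL1 value was not tested.

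The promoters of IL1RL1, which passed in a planned comparison, and of IL1A are shown. IL1A passed only in the comparison added after the levels had been seen. For 8 of the 9 members the RefSeq-derived table gave 17 windows of 250 bases before to 50 bases after a transcription start (GRCh38.p14), and IL18 had no entry. They were searched on both strands for the NF-κB consensus, the AP-1 motif TGANTCA and the ATF4-C/EBP core TGATGNA, and matches are in capitals. The sequences run 5′ to 3′ along the gene, from chr2:102337007-102337306 (plus strand) for the first IL1RL1 start, chr2:102311313-102311612 (plus strand) for the second and chr2:112784444-112784743 (minus strand) for IL1A.
IL1RL1 first start: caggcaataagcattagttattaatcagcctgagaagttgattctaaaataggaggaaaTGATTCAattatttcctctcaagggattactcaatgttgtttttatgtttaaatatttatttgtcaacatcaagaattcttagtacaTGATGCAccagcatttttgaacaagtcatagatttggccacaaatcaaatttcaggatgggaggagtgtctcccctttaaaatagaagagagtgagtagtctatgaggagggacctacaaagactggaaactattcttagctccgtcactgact
IL1RL1 second start: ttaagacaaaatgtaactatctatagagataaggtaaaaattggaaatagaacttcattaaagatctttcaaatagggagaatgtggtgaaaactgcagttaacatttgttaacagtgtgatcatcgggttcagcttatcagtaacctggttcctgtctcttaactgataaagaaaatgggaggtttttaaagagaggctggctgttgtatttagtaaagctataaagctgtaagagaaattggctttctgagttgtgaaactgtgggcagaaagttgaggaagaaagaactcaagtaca
IL1A: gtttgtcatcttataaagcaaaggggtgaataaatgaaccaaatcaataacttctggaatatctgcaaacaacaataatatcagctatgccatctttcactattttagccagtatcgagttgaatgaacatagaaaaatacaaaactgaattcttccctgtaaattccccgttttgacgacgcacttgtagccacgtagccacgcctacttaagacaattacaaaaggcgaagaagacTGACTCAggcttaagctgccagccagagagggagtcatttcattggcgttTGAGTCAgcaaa
The first IL1RL1 window held an AP-1 match that begins 191 bases before the start and an ATF4-C/EBP match that begins 104 bases before it, and the second held none of the 3 motifs. The IL1A window shown held AP-1 matches that begin 12 bases before and 38 bases after the start. Over the 17 windows the NF-κB consensus was found in 1 (IL18R1), the AP-1 motif in 4, of which 2 are overlapping IL1A windows that hold the same matches, and the ATF4-C/EBP core in 2, and over all 35116 windows of the same length the shares were 11.3%, 7.71% and 9.99%. A match is a string of letters in the window and says nothing about binding in these cells.

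IL1RL1 lies on chromosome 2 in a row of receptor genes that runs IL1R2, IL1R1, IL1RL2, IL1RL1, IL18R1 and IL18RAP in the RefSeq order. The log2 difference of GlcN from IL-1β along this row was 0.37, 0.04, 0.03, 0.76, 0.04 and -0.04. IL1R2 and IL1RL1 passed among the 4 of these genes that were tested, whereas IL18R1 and IL18RAP were too dim for the test, and the genes on either side of IL1RL1 differed by 0.03 and 0.04. IL1R2 encodes a decoy receptor that binds IL-1 without signalling, and it was higher with GlcN by 0.31, 0.66 and 0.15, a mean of 0.37 ± 0.26 (SD, n = 3) or 1.3-fold (limma, adjusted p = 0.0185). The IL1R2 call was lost without experiment 1, 2 or 3 (limma, adjusted p = 0.095, 0.237 and 0.0683). In the row of 9 ligand genes from IL1A to IL1RN on the same chromosome the differences ran from -0.05 for IL1B to 0.24 for IL1A, and none of the tested genes passed.

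**Figure D4:**
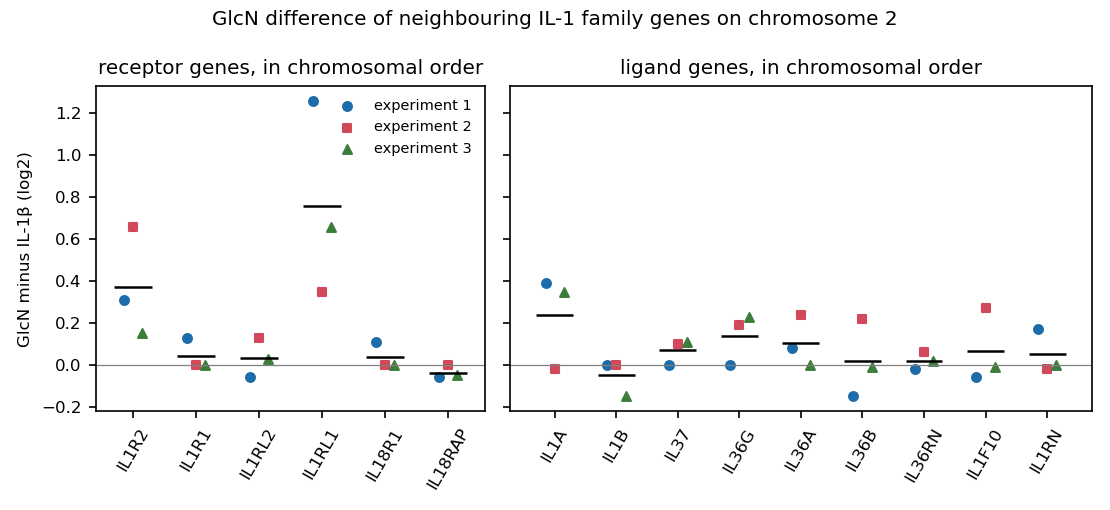
Log2 difference of GlcN from IL-1β alone for the IL-1 receptor genes and the IL-1 ligand genes of chromosome 2 in their order along the chromosome, with 1 symbol per experiment and a bar at the mean of the 3 experiments. IL1RL1 at 0.76 and IL1R2 at 0.37 stand above the genes between and beside them, and the means of the ligand genes stay at or below 0.24, with the highest single point at 0.39 for IL1A.

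For the members as a group, none of the 7 tested passed for IL-1β against resting, where 0% of all genes passed (limma, with 977 genes or 5.79% under an unadjusted p of 0.05, and 3 genes without the block). The members under that unadjusted limit were IL1A and IL18. No member passed for alloxan against IL-1β, beside 13.3% of all genes, for both agents against GlcN, beside 6.79%, for both agents against alloxan, beside 3.53%, or for the interaction, beside 0.0711%. None passed for both agents against IL-1β either, beside 17.5%. Under an unadjusted p of 0.05 in the same fit lay 0, 2, 2, 0 and 1 of the 7 members in these 5 comparisons, beside 26.2%, 22.3%, 16.3%, 11% and 28.7% of all genes, and no member without the block. The median log2 difference of the 7 was -0.0246 with IL-1β, against 0 over all genes, 0.0441 with GlcN, against 0.00688, and 0.0734 with alloxan, against 0.0146. The GlcN and alloxan comparisons share the IL-1β arrays and are therefore not separate evidence.

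**Figure D5:**
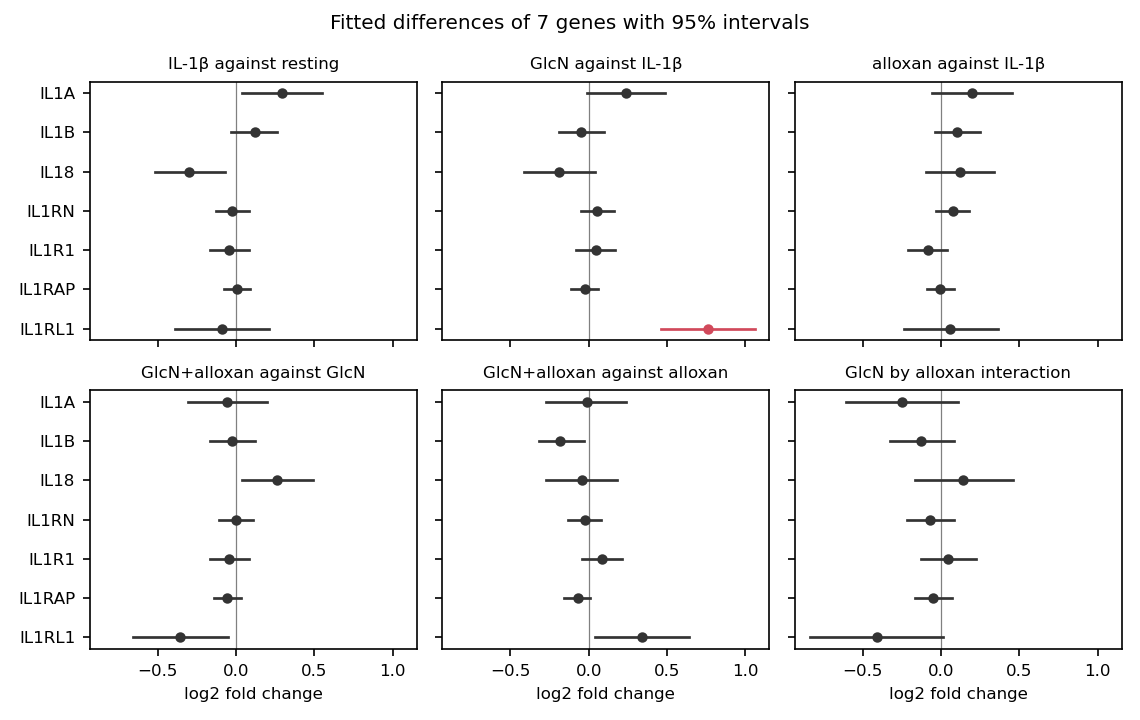
Log2 differences of the 7 tested members in the 6 planned comparisons, with points at the limma estimate with experiments blocked, bars for its 95% interval, and red for an adjusted p under 0.05. The only red point is IL1RL1 with GlcN at 0.76, and the interval of its interaction reaches 0.01.

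The genes whose signal most resembled that of IL1RL1 over the 15 arrays, after each experiment's mean was subtracted, were CTH, TRIB3 and PSAT1, with Pearson r of 0.941, 0.94 and 0.94. CTH makes cysteine from cystathionine, TRIB3 is a stress-induced pseudokinase, and PSAT1 acts in serine synthesis. Their log2 differences with GlcN were 1.07 ± 0.46, 1.62 ± 0.31 and 1.35 ± 0.39 (SD, n = 3), each larger than that of IL1RL1. For IL1A the nearest genes were LINC02693, SKIDA1 and APLF, with r of 0.915, 0.881 and 0.876, and for IL18 they were NOL11, ZNF530 and INSIG2, with 0.915, 0.912 and 0.909. These correlations describe arrays that share experiments and conditions, and they were the highest of 16872 genes by choice.

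Other genes of the pathway were read from lists of names. None of the 4 tested genes among 6 further ligands passed in limma in any of the 6 planned comparisons, and an unadjusted p under 0.05 was reached by 2 of them for both agents against GlcN, beside 22.3% of all genes, and by 1 for the interaction, beside 11%. Among 5 tested receptors and regulators, IL1RAPL1, a synaptic relative of the accessory chain, was lower with GlcN by a log2 difference of -0.37 ± 0.19 (SD, n = 3, limma, adjusted p = 0.0396), with alloxan by -0.44 ± 0.12 (SD, n = 3, limma, adjusted p = 0.0178), and with both agents against GlcN by -0.40 ± 0.15 (SD, n = 3, limma, adjusted p = 0.0407). Among 12 tested genes of cytokine processing and release, 4 were lower with GlcN, beside 6.62% of all genes. The DNA sensor AIM2 fell by 0.82 ± 0.35 on the log2 scale (SD, n = 3, limma, adjusted p = 0.00796) and the inflammasome sensor NLRP3 by 0.31 ± 0.11 (SD, n = 3, limma, adjusted p = 0.0163). CASP8, an initiator caspase, had a log2 difference of -0.17 ± 0.10 (SD, n = 3, limma, adjusted p = 0.0245), and the calpain subunit CAPN2, the last of the 4 and named after its value was seen, -0.28 ± 0.23 (SD, n = 3, limma, adjusted p = 0.0421). AIM2 was lower with alloxan too, by -0.63 ± 0.19 (SD, n = 3, limma, adjusted p = 0.0268). The median of the 12 with GlcN was 0.0017, against 0.00688 over all genes.

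Downstream of the receptors, 8 adaptor and kinase genes were tested. TRAF6, the ubiquitin ligase that passes the signal to TAK1, was higher with GlcN by 0.68, 0.97 and 0.33, a log2 difference of 0.66 ± 0.32 (SD, n = 3, limma, adjusted p = 0.00272), and with alloxan by 0.87 ± 0.27 (SD, n = 3, limma, adjusted p = 0.00053). TOLLIP, an inhibitor of the IRAK kinases, was higher with alloxan by 0.27 ± 0.07 (SD, n = 3, limma, adjusted p = 0.00494) and with both agents against GlcN by 0.19 ± 0.11 (SD, n = 3, limma, adjusted p = 0.0394). Of 14 tested genes known to rise in fibroblasts with IL-1, 12 had positive differences between IL-1β and resting, with a median of 0.37 against 0 over all genes, but none passed in limma, where 7 had an unadjusted p under 0.05 with the block and 1 without it. The largest were IL6 with a log2 difference of 1.24 ± 0.46 (SD, n = 3, limma, adjusted p = 0.169), NFKBIA with 0.85 ± 0.47 (SD, n = 3, limma, adjusted p = 0.266) and TNFAIP3 with 0.64 ± 0.31 (SD, n = 3, limma, adjusted p = 0.581). With GlcN 4 of the 14 were lower, beside 6.62% of all genes, namely IL6 by -1.07 ± 0.39, TNFAIP3 by -1.09 ± 0.23, SOD2 by -0.67 ± 0.27 and ICAM1 by -0.56 ± 0.22 (SD, n = 3, limma, adjusted p = 0.00518, 0.00154, 0.0201 and 0.0228), and the median was -0.281. With alloxan 2 of the 14 were higher, beside 6.13% of all genes, namely CXCL8 by 0.90 ± 0.30 and CXCL2 by 0.32 ± 0.16 (SD, n = 3, limma, adjusted p = 0.0186 and 0.0396). With both agents against alloxan 5 of the 14 were lower, beside 1.67% of all genes, namely CXCL8, IL6, TNFAIP3, CXCL2 and LIF, by -0.96, -0.90, -0.81, -0.40 and -0.31.

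None of these pathway calls passed without the block, and leaving out an experiment removed many of them. TRAF6 with GlcN did not pass without experiment 1 or 2 (limma, adjusted p = 0.0621 and 0.0599), AIM2 without experiment 3 (limma, adjusted p = 0.133), IL6 without experiment 2 (limma, adjusted p = 0.111) and TNFAIP3 without experiment 3 (limma, adjusted p = 0.0712). NLRP3, CASP8 and IL1RAPL1 did not pass with GlcN without experiment 2 or 3, and CAPN2, SOD2 and ICAM1 in none of the 3 cases. TRAF6 passed with alloxan in all 3, TOLLIP did not without experiment 1, AIM2 did not without experiment 1 or 3, IL1RAPL1 and CXCL8 did not without experiment 2 or 3, and CXCL2 did not in any. With both agents against GlcN the IL1RAPL1 and TOLLIP calls were lost in each of the 3 cases, and so were those against alloxan, except CXCL8 without experiment 1.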

How the data were processed

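Labelled cDNA from 15 cultures was hybridized to Affymetrix Human Gene 1.0 ST arrays, and the authors made the deposited log2 values, 1 per transcript cluster, by the RMA method in Affymetrix Expression Console (software version not given in the sources used here). Background correction and normalization were thus the authors'. No detection call was used, and precision is limited by how many arrays there were. Arrays were assigned to condition and experiment by the titles. Of 33297 clusters, 19460 carried 1 symbol in the platform annotation, 1754 several and 12083 none listed, and for 19429 the current symbol was taken from RefSeq by gene ID (GRCh38.p14). The brightest cluster per symbol was kept, and a gene was tested if it reached the 20th percentile on 3 or more arrays.

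Differences were tested, two-sided, with lmFit and eBayes of limma 3.58.1 (R 4.3.3; 5 group means, 8 residual degrees of freedom), with the experiment as a block, Benjamini-Hochberg adjustment over 16872 genes and a threshold of 0.05. The study used an unpaired Student's test, so the unblocked fit was an alternative. The study applied no correction for multiple tests. Arrays that shared an experiment number resembled each other. Deviations from the group means correlated at 0.6208 to 0.8477 for the 30 array pairs that shared a number. For the 60 pairs that differed in both number and condition they correlated at -0.6564 to -0.0678. Subtracting the group means by itself pushes the latter below 0 where the former are above it. Whether the likeness came from culture or from processing was not tested. No 2 arrays were identical. Tested on simulated data for GlcN (50 changed genes per size, 16872 in all), the blocked fit recovered 48 genes changed 1.5-fold and 49 changed 2-fold and made 8 false calls, whereas the unblocked fit recovered 0 and 0. These data were simulated from the blocked model with independent normal errors, so its better recovery was built in. They held no equal values between arrays, and the false calls do not give the error rate in the real data. Figures were drawn with matplotlib 3.10.9 in Python 3.11.15.

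The members, gene lists, block and alternatives were chosen with earlier results of these data known. The genes named are the 9 members, the 3 genes most correlated with each member that passed, and up to 3 passing genes per list and comparison by smallest p, or by largest change for IL-1β in the list of IL-1-responsive genes. CAPN2 and ICAM1 with GlcN and CXCL8 and CXCL2 with both agents against alloxan fall outside this rule and, like the cell type markers singled out, were named after their values were seen. Other marker lists (macrophage, endothelial, T and B cell, epithelial) held 0 genes that passed with GlcN. Genome positions of transcript clusters are not given because the annotation's assembly was not matched to the reference table.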

Additional observations from a re-analysis of the deposited data

How the results depend on the processing

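With no replicate block, where the arrays are not paired by experiment, no member passed for GlcN or for the 4 stimulated conditions, and the number of genes that passed was 4 for GlcN, 1 for both agents against IL-1β and 0 for alloxan, both agents against GlcN, both agents against alloxan, the interaction and the 4 stimulated conditions. The methods' t-test, run here on the deposited values with Benjamini-Hochberg adjustment, gave 0 members and 0 genes in all of these. In this unpaired test the levels of the 3 experiments count as error. The study itself applied no such correction, gave normalized values beside its p-values and listed IL1RL1 as higher with GlcN. Whether its test used those normalized values was not checked, so these counts are not its own and do not show its calls under correction. With only the groups compared and the block kept, 0 members passed for GlcN, and the counts over all genes were 1 for GlcN, 276 for both agents against IL-1β and 0 for alloxan, both agents against GlcN and both agents against alloxan. With a filter at the 50th percentile IL1RL1 was not tested, so that 0 members passed for GlcN, and 1 passed for the 4 stimulated conditions. The interaction had 12 genes, 16.7% of them higher, but 19 (42.1% higher) with that filter and 23 (30.4% higher) with quantile normalization. Leaving out an experiment, with its 5 arrays, gave 0 to 1 members for GlcN and 0 to 1 for the 4 stimulated conditions, and over all genes 0 to 1 for IL-1β, 675 to 912 for GlcN, 761 to 885 for alloxan, 157 to 427 for both agents against GlcN, 97 to 151 for both agents against alloxan, 0 to 0 for the interaction, 516 to 945 for the 4 stimulated conditions and 1373 to 1655 for both agents against IL-1β. These fits have fewer arrays. The differences of IL1RAP changed sign with quantile normalization (-0.014 for IL-1β and 0.016 for alloxan) and with equal medians (-0.021 and 0.013). Signs also changed when an experiment was left out for small differences, which then ranged from -0.084 to 0.047 for IL1RN with IL-1β, from -0.008 to 0.084 for IL1RN with GlcN, from -0.045 to 0.003 for IL1B with both agents against GlcN, from -0.091 to 0.056 for IL1A and -0.086 to 0.007 for IL18 with both agents against alloxan, from -0.025 to 0.087 for the IL1R1 interaction, from -0.013 to 0.047 for IL1RN and -0.087 to 0.006 for IL1R1 with the 4 stimulated conditions, and from -0.008 to 0.084 for IL1RN and -0.03 to 0.132 for IL18 with both agents against IL-1β. The cause was not tested. Of 34 calls named for other genes, 34 were lost without the block, with only the groups compared and in the methods' t-test, 2 with quantile normalization, 5 with equal medians, and 19, 23 and 21 without experiments 1, 2 and 3, all in the same direction. Omitting the filter on dim genes, the mean over clusters of a gene, and an intensity trend with robust moderation changed no call of a member or of a named gene. Each member had 1 cluster, so the mean over clusters could not change a member's value. Of the members' values under all alternatives, 621 kept direction and call, 13 kept only the direction and 14 changed sign. The 13 are all losses of the IL1RL1 call with GlcN and of the IL1A and IL18 calls for the 4 stimulated conditions. The other values were not calls in the main fit. IL18R1 and IL33, which were not tested, were counted as unchanged, and some alternatives cannot change a log2 difference. The 621 are therefore not a measure of how firm the calls are.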
